A study of Mus musculus with 4 samples.

Results

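The genes described here are 10 immediate early genes, Fos, Fosb, Jun, Junb, Jund, Atf3, Egr1, Klf2, Ier2 and Btg2, read across the cell types of 4 single-cell libraries from the mouse central nervous system. They were chosen by name, as a readout of digestion stress and of cell activation, and are 10 of 41862 gene columns in the deposited count tables. All 10 were listed in each library. Cells were C57BL6 mouse cells that carried TdTomato under Aldh1l1CreERT2, an inducible Cre recombinase driven by the promoter of Aldh1l1, a gene used to mark astrocytes. They were freed with papain, cleaned on 30% Percoll and sorted for TdTomato and for surface LAMP1, and then split by surface TRAIL, a death ligand of the tumour necrosis factor family. The inDrops v3 droplet method gave 4 libraries, TRAIL- and TRAIL+ from naive mice and TRAIL- and TRAIL+ from mice with EAE, so each group is 1 library. EAE is experimental autoimmune encephalomyelitis, a model of multiple sclerosis; it was induced with 150 µg of the myelin peptide MOG35-55 in complete Freund's adjuvant, and the mice were taken at the peak phase, while naive mice stood as controls. The design names 3 naive and 3 EAE mice, and how their cells entered the libraries was not given in the sources used here. With 1 library a group there was no replicate check, no test between groups was possible, and every interval below is a 95% interval that covers counting error only.

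Immediate early genes are transcribed within minutes of a stimulus from factors already present in the cell, without new protein synthesis. Growth factors, calcium entry, inflammatory ligands, mechanical strain and the enzymatic dissociation of tissue can all switch them on, so in brain cell suspensions they are read both as signs of activity and as traces of the preparation. Fos and Fosb pair with Jun, Junb and Jund to form the transcription factor AP-1, and Atf3, a stress-induced factor of the same bZIP superfamily, can pair with Jun proteins. Egr1 is a zinc finger transcription factor, Ier2 a small nuclear protein, and Btg2 a brake on cell division that also promotes mRNA decay. Klf2 is a zinc finger factor known in endothelial cells as a gene switched on by blood flow.

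Promoter sequences are shown for 4 members that stand for the patterns below: Fos and Jun, which moved together, Btg2, and Klf2, which did not follow the others. RefSeq (GRCm38.p6) entries matched 8 of the 10 members. The printed bases lie upstream of the transcribed sequence in GENCODE, 5′ to 3′ on the gene's own strand: Fos at chr12:85473710-85473889 (+), Jun at chr4:95052223-95052402 (-), Btg2 at chr1:134079156-134079335 (-) and Klf2 at chr8:72318882-72319032 (+). Capitals mark matches to the cyclic AMP response element TGACGTCA, its shorter core TGACG, the AP-1-like TGACATCA or the MEF2 site.

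Fos: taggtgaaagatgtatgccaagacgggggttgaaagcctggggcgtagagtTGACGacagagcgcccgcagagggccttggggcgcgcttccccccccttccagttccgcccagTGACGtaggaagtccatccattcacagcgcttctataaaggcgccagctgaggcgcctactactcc
Jun: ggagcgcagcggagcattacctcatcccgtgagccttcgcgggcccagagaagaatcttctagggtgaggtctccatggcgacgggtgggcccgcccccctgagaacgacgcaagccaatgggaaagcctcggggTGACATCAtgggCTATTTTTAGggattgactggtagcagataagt
Btg2: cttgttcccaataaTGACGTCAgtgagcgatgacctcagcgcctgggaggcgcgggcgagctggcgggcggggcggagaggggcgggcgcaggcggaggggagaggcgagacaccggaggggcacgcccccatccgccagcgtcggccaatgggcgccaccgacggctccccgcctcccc
Klf2: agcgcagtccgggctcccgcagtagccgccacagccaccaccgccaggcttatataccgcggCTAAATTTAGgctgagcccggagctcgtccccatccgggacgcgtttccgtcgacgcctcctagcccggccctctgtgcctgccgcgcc

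In the 250 bases before the start, searched on both strands, the Fos promoter held 2 TGACG cores, and the Jun promoter held 1 TGACATCA and 1 MEF2 site. The Btg2 promoter held the full TGACGTCA, whose first letters also match that core, and the Klf2 promoter held a MEF2 site. Of 32851 promoters in the same table, 17.8% held TGACG, 1.55% TGACGTCA, 2.93% TGACATCA and 2.92% the MEF2 site. TGACG was present for Fos, Fosb, Junb, Atf3, Btg2 and Klf2, and the MEF2 site for Jun, Atf3 and Klf2. The TGACG of Klf2, at base -241, lies before the bases printed above. A match describes the letters in the window and shows no binding.

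The tables listed 12987 barcodes, of which 7899 had at least 500 UMIs (unique molecular identifiers, each standing for 1 captured mRNA) and at most 20% of them from mitochondrial (mt-) genes. The libraries kept 1597 to 2259 cells with median depths of 949 to 1907.5 UMIs, and any 2 libraries shared 23 to 40 kept barcodes. Although the label is astrocytes, 187 of the 7899 cells were astrocyte-like by their markers, so the results are given by cell class. Microglia-like cells made up 84.6% and 89.8% of the naive and EAE TRAIL+ libraries and 14.1% and 18.97% of the TRAIL- libraries, where endothelial-like and pericyte or smooth muscle-like cells were common. Sex-linked RNA also split the libraries. Levels are given as CPM, counts of UMIs scaled to a library or class total of 1000000. Xist was at 10.6 and 9.35 CPM in the naive TRAIL- and TRAIL+ libraries and at 663 and 1095 CPM in the EAE libraries. The Y-linked gene Ddx3y went the other way, at 132 and 164 CPM in naive and 3.92 and 3.46 CPM in EAE. Disease and the sex that this RNA marks thus cannot be told apart in any EAE-to-naive comparison. Levels below are CPM of the summed UMIs of a class in a library, over 13 such groups of at least 50 cells.

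The 10 members together were abundant in microglia-like and endothelial-like cells and scarce in epithelial and mural cells. Their summed level in microglia-like cells of naive mice was 30010.5 CPM (29536 to 30491) for TRAIL- and 29075 CPM (28886 to 29265) for TRAIL+. In those of mice with EAE it was 13492 CPM (13202 to 13787) for TRAIL- and 19737 CPM (19585 to 19889) for TRAIL+. In endothelial-like cells of the TRAIL- sort it was 26378 CPM (26077 to 26681) in naive mice and 19783 CPM (19414 to 20157) in EAE. These 2 classes thus gave 1.35% to 3.00% of all their UMIs to 10 genes, and no interval of these 6 groups overlapped another except that EAE TRAIL+ microglia-like and EAE TRAIL- endothelial-like cells lay together. Monocyte-like cells from EAE held 5087 CPM (4909 to 5269) in the TRAIL- and 8481 CPM (8188 to 8782) in the TRAIL+ library. Pericyte or smooth muscle-like TRAIL- cells held 4324 CPM (4133 to 4523) from naive mice and 3445 CPM (3283 to 3612) from EAE, the astrocyte-like cells of naive TRAIL+ 5515 (5200 to 5844), and the oligodendrocyte-like cells of naive TRAIL- 2865 (2584 to 3168). The choroid plexus-like cells of naive TRAIL-, at 635 CPM (554 to 725), were the lowest of the 13 groups for each of the 10 genes, and the span from the highest group to these cells ran from 10.4-fold for Jund to 201-fold for Ier2. The highest and the lowest summed level thus came from the same naive TRAIL- library.

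**Figure D1:**
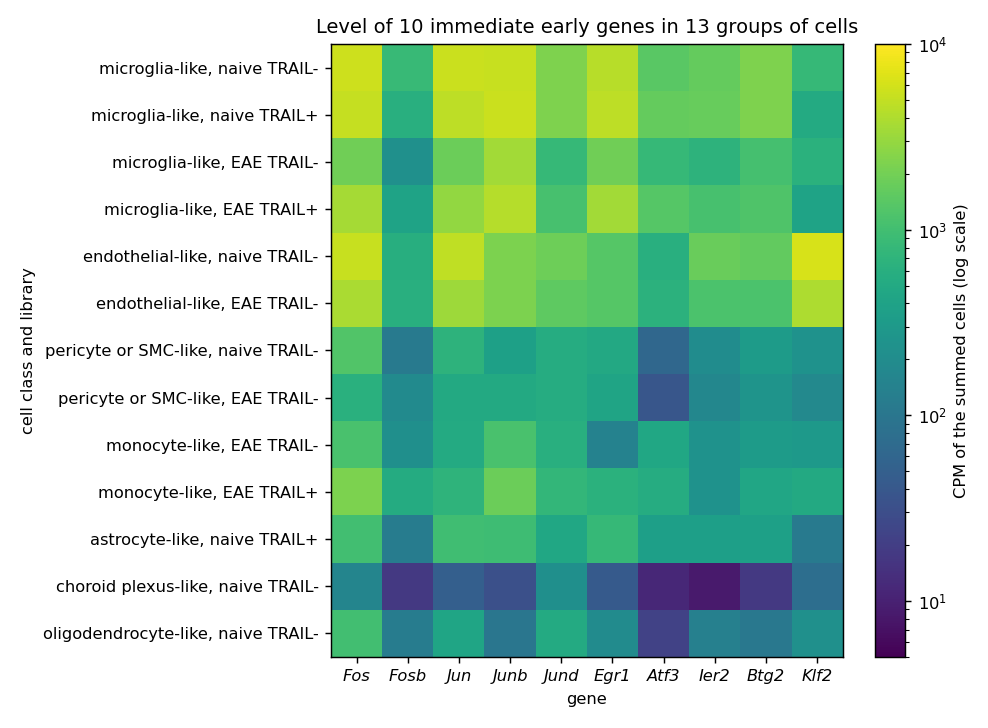
Level of each member (columns) in the groups of cell class and library (rows), in CPM of summed UMIs on a log colour scale; SMC stands for smooth muscle cell. The 4 microglia-like rows and the 2 endothelial-like rows are high in most columns. In the EAE TRAIL- microglia-like row, Fos and Fosb lie below the EAE TRAIL+ monocyte-like row. Klf2 is highest in the endothelial-like rows and well below them in the microglia-like rows, and the choroid plexus-like row is lowest throughout.

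Among the AP-1 members, Fos, the stimulus-induced partner of the complex, stood at 5659, 5097, 1935 and 3541 CPM in microglia-like cells, where 4 values together are always given as TRAIL- then TRAIL+ of naive mice, followed by TRAIL- then TRAIL+ of EAE. In endothelial-like TRAIL- cells, for which pairs of values are given as naive then EAE, it was 5205 and 3859.5 CPM, and in the pericyte or smooth muscle-like cells of the same libraries 1269 and 629.6 CPM. The 2 naive microglial groups and the naive endothelial group were high, and the EAE groups of the same classes were lower. Jun, its main partner, had the same order over these 6 groups of microglia-like and endothelial-like cells, with 5419.9, 4733, 1829 and 2891 CPM in microglia-like cells and 4888 and 3304 CPM in endothelial-like cells. Fosb, a paralogue of Fos, was at 840.2, 613, 225 and 408 CPM in microglia-like cells. In endothelial-like cells it was at 588 and 609.9 CPM, so its EAE level was not below the naive one there.

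Junb, which can restrain the activity of Jun, leaned to microglia-like cells, at 5258, 5509.9, 3536 and 4268 CPM against 2263 and 2243 CPM in endothelial-like cells. Jund, the member with the steadiest expression in many tissues, had the narrowest span over the groups, with 2266, 2273, 822 and 1109 CPM in microglia-like cells and 218 CPM in choroid plexus-like cells. Atf3 reached 1424, 1652, 809 and 1345 CPM in microglia-like cells, 605 and 668 CPM in endothelial-like cells and 63.3 and 38.3 CPM in pericyte or smooth muscle-like cells. Jund in those mural cells was at 554 and 557 CPM, level between the conditions.

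Egr1 also leaned to microglia-like cells, with 4363, 4633, 1932 and 3434 CPM there and 1367 and 1357 CPM in endothelial-like cells. Ier2 did not: it was at 1655, 1716, 688 and 1088 CPM in microglia-like cells and at 1752 and 1178 CPM in endothelial-like cells. Btg2 was at 2309.6, 2334, 1075 and 1244 CPM in microglia-like cells and at 1596 and 1171 CPM in endothelial-like cells. Klf2 was the exception to the common order. It stood at 6271 and 3869 CPM in the endothelial-like cells, and at 817, 514, 642 and 408 CPM in the microglia-like cells of the 4 libraries. Within naive TRAIL- the microglia-like level of Klf2 was thus 7.68-fold lower than the endothelial-like level.

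Between microglia-like and endothelial-like cells of naive TRAIL-, 3 members were at least 2-fold higher in the microglia-like cells and Klf2 was lower, where 49.6% of all genes compared were at least 2-fold apart, 21.5% higher and 28.1% lower. Egr1 was 3.19-fold, Atf3 2.36-fold and Junb 2.32-fold higher, while Fos (1.09-fold) and Jun (1.11-fold) lay close between the classes, and with TMM scaling both turned to the endothelial side. The summed level differed by 0.19 on the log2 scale, and by less than 0.01 (0.0019) after TMM scaling. In EAE TRAIL- the same pair of classes gave no member higher in microglia-like cells and 2 lower, Fosb and Klf2, where 49.2% of genes were apart, 22.1% higher and 27.1% lower, and the summed level was 1.47-fold lower (1.42 to 1.51) in the microglia-like cells. All 10 members were at least 2-fold higher in microglia-like than in pericyte or smooth muscle-like cells of naive TRAIL-, where 55.7% of genes were apart, 22.7% higher and 33.1% lower. The members' median log2 difference was 2.94 against -0.27 over all genes.

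Counted per cell after thinning each cell to 500 UMIs, the members were spread over most microglia-like cells and concentrated in few mural cells. The median microglia-like cell held 15, 14, 5 and 9 member UMIs in the 4 libraries, and 2.82%, 0.742%, 18.5% and 4.91% of these cells held none. At least 5 of the 10 members were seen in 76.8%, 78.5%, 29.7% and 50.2% of them. The whole distribution differed: the 10th and 90th percentiles were 0 and 16 member UMIs in the EAE TRAIL- cells and 5 and 26.2 in the naive ones of the same sort. A Fos UMI was seen in 78.1%, 76.4%, 38.0% and 61.7% of thinned microglia-like cells (89.97%, 91.1%, 59.1% and 80.1% before thinning) and in 56.7% and 48.3% of thinned endothelial-like TRAIL- cells of naive mice and EAE. In choroid plexus-like cells of naive TRAIL-, thinned to the same 500 UMIs from a median of 3190, the share was 4.396%.

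**Figure D2:**
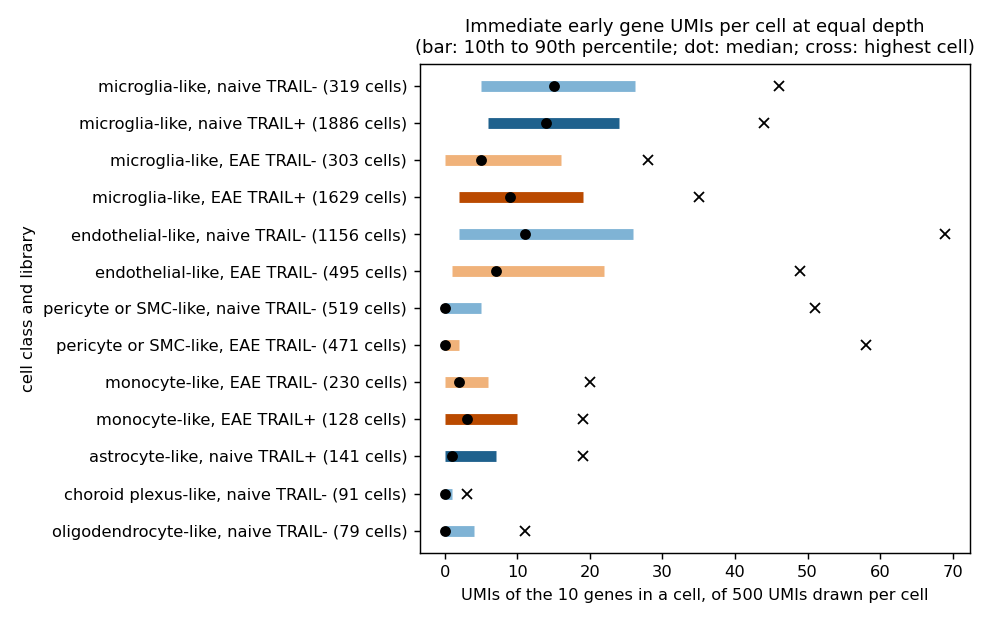
Member UMIs per cell after thinning to 500 UMIs, by cell class and library, with a dot at the median, a bar from the 10th to the 90th percentile of cells and a cross at the highest cell; SMC stands for smooth muscle cell. Medians are 15, 14, 5 and 9 in microglia-like cells and 0 in pericyte or smooth muscle-like and choroid plexus-like cells.

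In some groups a member was seen more often in cells with another member than in cells without it, and in others the shares were close. The same pair could do either, depending on the class and library. In the microglia-like cells of EAE TRAIL-, Jun was seen in 60.0% of thinned cells with a Fos UMI and in 26.1% of those without, and in naive TRAIL+ in 80.1% and 64.9%. In the endothelial-like cells of naive TRAIL-, Egr1 was seen in 37.2% of cells with Fos and 9.4% of those without. Btg2, in microglia-like cells of EAE TRAIL-, was seen in 34.8% (26.1% to 44.2%) with Fos and 30.9% (24.3% to 38.0%) without. Its shares in endothelial-like cells of naive TRAIL- were 48.9% and 24.2%. Jun, in monocyte-like cells of EAE TRAIL-, was seen in 21.7% (12.1% to 34.2%) with Fos and 17.1% (11.7% to 23.6%) without. In those of EAE TRAIL+ the Jun shares were 35.8% (24.5% to 48.5%) and 6.56% (1.82% to 15.9%). Klf2 varied between libraries: in microglia-like cells it was seen in 16.5% of cells with Fos and 15.3% of those without in naive TRAIL+, but in 26.96% (19.1% to 36.0%) and 10.1% (6.20% to 15.3%) in EAE TRAIL-. In endothelial-like cells of naive TRAIL- the shares were 89.0% and 70.0%. These shares describe cells of 1 library each and carry the cells' differences in state and quality.

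Microglia-like cells were the class in which disease could be compared in both sorts, and all 10 members were below their naive level in both. In TRAIL+ cells the summed level was 1.47-fold lower in EAE (1.46 to 1.49), and 1 member, Jund, passed 2-fold at 2.05-fold (1.97 to 2.13), where 2.83% of genes were at least 2-fold apart, 2.4% higher and 0.436% lower. The next were Btg2 at 1.88-fold and Jun at 1.64-fold, and the members' median log2 difference was -0.56 against -0.05 over all genes. In TRAIL- cells the summed level was 2.22-fold lower in EAE (2.17 to 2.29), and 7 members were at least 2-fold lower, where 16.4% of genes were at least 2-fold apart, 8.05% higher and 8.32% lower. Fosb was lower by 3.74-fold (3.08 to 4.57), Jun by 2.96-fold (2.76 to 3.18), Fos by 2.92-fold (2.73 to 3.13), Jund by 2.76-fold, Ier2 by 2.41-fold, Egr1 by 2.26-fold and Btg2 by 2.15-fold. Atf3 at 1.76-fold, Junb at 1.49-fold and Klf2 at 1.27-fold did not pass. The members' median log2 difference in TRAIL- was -1.22 against -0.08 over all genes.

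**Figure D3:**
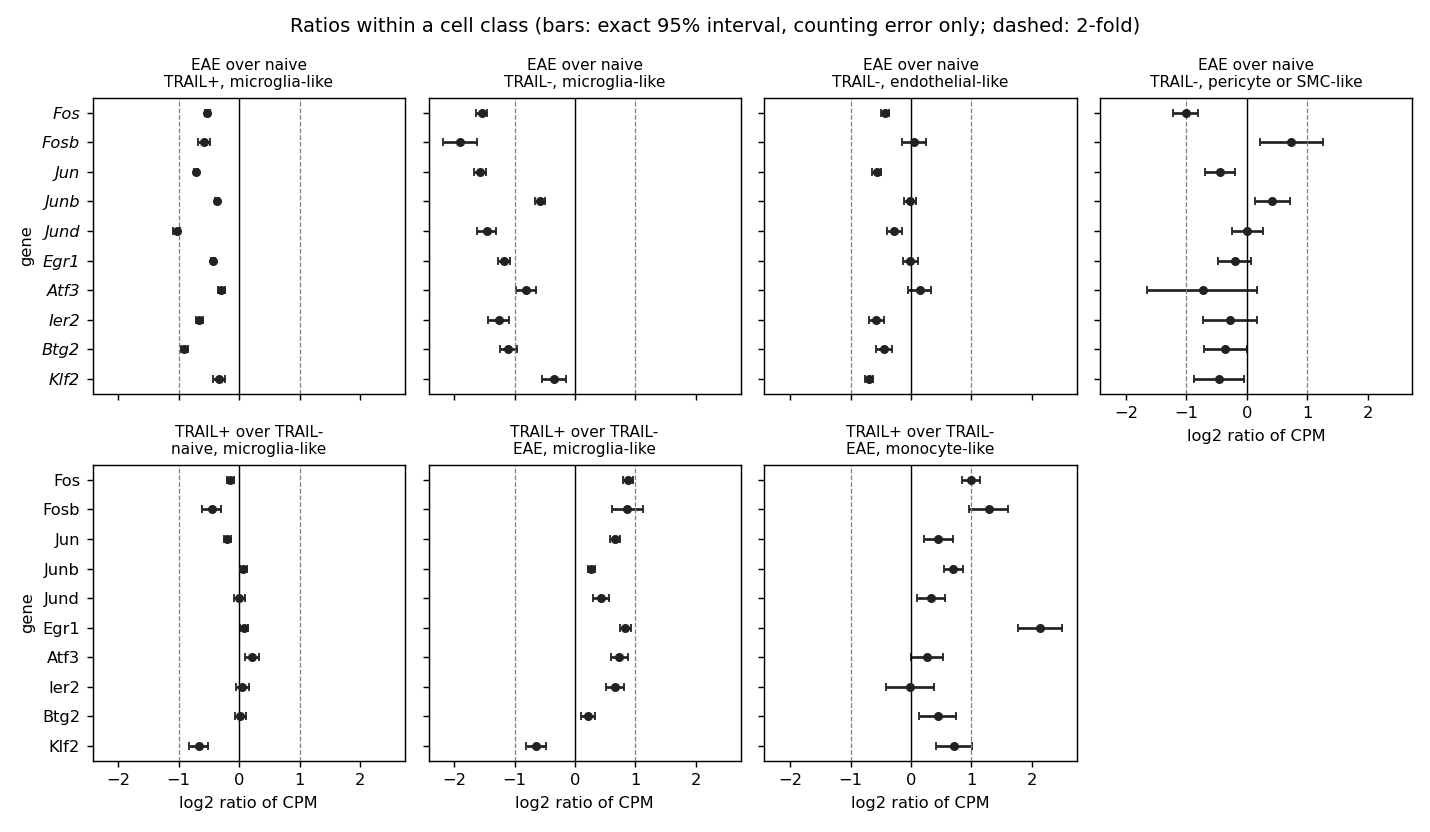
Log2 difference of each member in the comparisons between libraries, with 95% counting intervals; values below 0 are lower in the first-named group and the dashed lines mark 2-fold. All 10 points lie below 0 in both microglia-like EAE-to-naive comparisons, and Klf2 is the 1 point below 0 in the comparison of TRAIL+ with TRAIL- in EAE microglia-like cells.

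The microglia-like class did not have the same clusters in each library. Clusters 4 and 5, led by P2ry12 and Siglech, genes of resting microglia, held most naive cells. Tnfaip3 was among the 10 leading genes of both, and Tnf among those of cluster 5. Cluster 6 was led by H2-Q7, Lgals3bp and Tnf, with Xist also among its 10 leading genes. It held 187 of 303 TRAIL- and 692 of 1629 TRAIL+ cells of EAE, against 2 and 23 naive cells. Of the 10 leading genes of cluster 6, 0 were microglial markers, against 6 and 7 in clusters 4 and 5. Its first 50 genes held 5 such markers. The summed member level in cluster 6 was 11471 CPM for TRAIL- and 16411 CPM for TRAIL+ in EAE, below clusters 4 and 5 of the same libraries. Another microglia-like cluster, 15, held 83 naive TRAIL+ cells but 36 EAE TRAIL+ and 2 EAE TRAIL- cells. These were too few for a level in EAE. Within cluster 4 the EAE level was 1.42-fold lower (1.39 to 1.45) than naive in TRAIL+ and 1.85-fold lower (1.74 to 1.97) in TRAIL-. Within cluster 5 it was 1.25-fold lower (1.23 to 1.27) and 1.65-fold lower (1.57 to 1.73). The direction was thus the same inside clusters 4 and 5, with smaller differences than in the class as a whole.

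**Figure D4:**
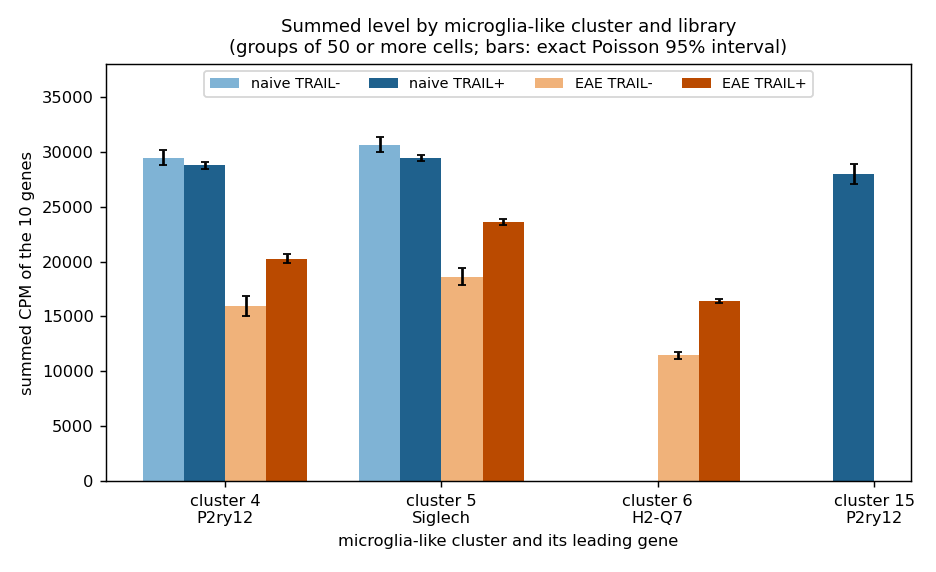
Bars give the summed member level in CPM within each microglia-like cluster, by library, for groups of at least 50 cells, with 95% counting intervals. In clusters 4 and 5 the naive bars reach 28758 to 30648 CPM, above the EAE bars at 15936 to 23599.6 CPM, and cluster 6 holds the lowest TRAIL- and the lowest TRAIL+ bar.

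The relation of the members to the share of mitochondrial UMIs, a sign of cell damage, differed between classes. In microglia-like cells of EAE TRAIL- the summed level was 15193 CPM in cells with under 2.5% mt- UMIs, 16035 CPM at 2.5% to 5% and 8812 CPM above 5%. In the same ranges it was 33708, 28683 and 26212 CPM in naive TRAIL-, 30079, 28826 and 28016 CPM in naive TRAIL+, and 21575, 20175 and 17609.8 CPM in EAE TRAIL+. Levels also fell across the ranges in pericyte or smooth muscle-like cells of naive TRAIL-, at 8862, 5114 and 2434 CPM. Between 2.5% to 5% and above 5%, astrocyte-like cells of naive TRAIL+ fell from 9399 to 3134 CPM. Oligodendrocyte-like cells of naive TRAIL- fell from 3688 to 2026 CPM over the same ranges. Choroid plexus-like cells of naive mice went the opposite way, at 414, 579 and 856 CPM. Monocyte-like cells of EAE TRAIL+ rose from 7063 CPM below 2.5% to 10086 CPM at 2.5% to 5%. In EAE TRAIL- they were at 4778 (4490 to 5080) and 5098 CPM (4862 to 5342), with overlapping intervals. EAE microglia-like cells were below naive ones of the same sort in each of the 3 ranges, so the difference was also present among cells with few mt- UMIs. The median mt- share of microglia-like TRAIL- cells was 3.92% in EAE and 3.05% in naive mice, and the part of the mt- share in the results was not tested. Barcodes with at least 100 but fewer than 500 UMIs were left out of all groups. They held members at 13437, 19242, 6811 and 11888 CPM in the 4 libraries, naive above EAE within each sort. Barcodes left out for over 20% mt- UMIs, 11 to 31 in a library, held 4171, 1702, 1411 and 1274 CPM. Neither set was split by class, and the mix of kept classes differed between libraries, so these values do not describe microglia-like cells.

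**Figure D5:**
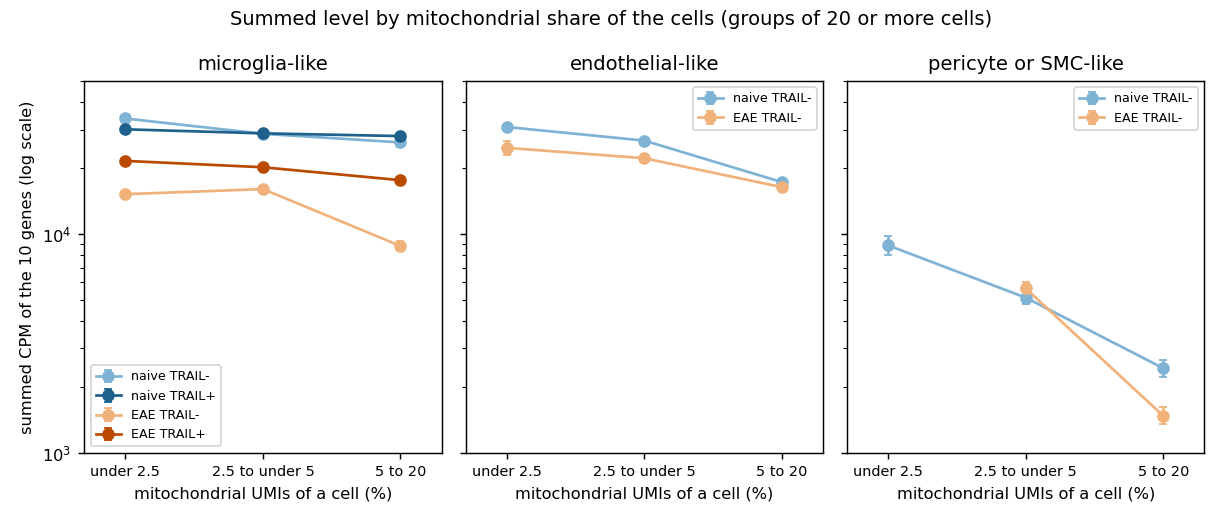
Summed member level in CPM against the share of mt- UMIs (under 2.5%, 2.5% to 5%, 5% to 20%) by cell class and library, on a log axis, for groups of at least 20 cells, with 95% counting intervals; SMC stands for smooth muscle cell. Endothelial-like cells of naive TRAIL- go from 30818 to 17257 CPM across the ranges, and naive microglia-like cells lie above EAE cells of the same sort in every range.

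TRAIL+ and TRAIL- microglia-like cells had nearly the same member levels in naive mice. The log2 difference of the sum was -0.05, and it turned to 0.19 with TMM and 0.20 with DESeq2 scaling. None of the 10 members passed 2-fold, where 1.1% of genes were at least 2-fold apart, 0.315% higher and 0.787% lower. Klf2 was 1.59-fold lower (1.42 to 1.77) in TRAIL+ and Fosb 1.37-fold lower (1.23 to 1.52), the 2 widest differences among the members. In EAE the summed level was 1.46-fold higher (1.43 to 1.497) in TRAIL+ than in TRAIL- cells. Again no member passed 2-fold, where 2.76% of genes did, 0.775% higher and 1.98% lower. With TMM scaling, which moved all genes of this comparison by 0.23 on the log2 scale, 3 members passed. The share of all genes past 2-fold after that scaling was not computed. Without it, Fos was 1.83-fold (1.72 to 1.94), Fosb 1.81-fold (1.52 to 2.18) and Egr1 1.78-fold (1.67 to 1.89) higher. Klf2 was 1.57-fold lower (1.40 to 1.77). Klf2 was thus lower in the TRAIL+ library in both conditions. Within clusters 4, 5 and 6 of EAE the summed level was 1.27-fold, 1.27-fold and 1.43-fold higher in TRAIL+, whereas Klf2 in cluster 4 was at 307 CPM for TRAIL- and 344 CPM for TRAIL+, with an interval of the ratio (0.721 to 1.82) that spans 1. In clusters 5 and 6 Klf2 was 1.53-fold (1.18 to 1.96) and 1.49-fold (1.29 to 1.72) lower in TRAIL+. Microglial marker UMIs were below 1% in 31 of 303 microglia-like cells of EAE TRAIL- and in 4 to 9 cells of each other library; with those cells left out the EAE log2 difference was 0.49 instead of 0.55. The microglia-like cells of the 2 sorts had similar median depths, 1517 and 1551.5 UMIs in naive mice and 1941 and 1885 in EAE for TRAIL- and TRAIL+. Since each sort was 1 library in each condition, the sort and the library cannot be told apart.

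In endothelial-like cells the summed level was 1.33-fold lower (1.30 to 1.36) in EAE TRAIL- than in naive TRAIL-, and 0 of the 10 members passed 2-fold, where 4.94% of genes did, 2.29% higher and 2.65% lower. Klf2 was 1.62-fold lower (1.54 to 1.70), Ier2 1.49-fold, Jun 1.48-fold, Btg2 1.36-fold and Fos 1.35-fold. Junb and Egr1 had log2 differences of -0.01 each, Atf3 of 0.14 and Fosb of 0.05, of which the last turned below 0 with TMM scaling. The intervals of these 4 span 0 in the class as a whole, but the clusters within it differed. Egr1 was 1.89-fold lower (1.52 to 2.37) in EAE in cluster 9 and 1.16-fold higher (1.05 to 1.28) in cluster 10, and Fosb was 1.75-fold lower (1.24 to 2.51) and 1.18-fold higher (1.02 to 1.37). Both endothelial clusters showed the lower Klf2: from 7093 to 4169.8 CPM in cluster 9, led by Depp1, Ly6c1 and the arterial gene Sema3g, and from 6015 to 3763 CPM in cluster 10. By mt- share the summed level was 30818 CPM in naive and 24755 CPM in EAE cells under 2.5%, and 17257 and 16365 CPM above 5%, so it lay closer between conditions in cells with many mt- UMIs. The 58 endothelial-like cells of naive TRAIL+ held the members at 27459 CPM, 1.04-fold (0.992 to 1.09) the level of those in naive TRAIL-.

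Pericyte or smooth muscle-like cells had a median of 0 member UMIs per thinned cell, and few cells set the class level. The 28 cells (5.39%) from naive mice with at least 10 member UMIs held 48.7% of the class's member UMIs, and 17 cells (3.61%) from EAE held 53.8%. Their own markers were at 27122 and 15752 CPM, against 35495 and 35315 CPM in the remaining cells, endothelial markers at 2719 and 6025 CPM against 1891 and 1410 CPM, and microglial markers at 2683 and 788 CPM against 439 and 785 CPM. Scrublet, a doublet caller, marked 5 of the 28 and 4 of the 17 cells, and without cells holding at least 1% microglial and endothelial marker UMIs the log2 difference of the summed level was -0.47. Fos was the 1 member of 10 past 2-fold between conditions, 2.02-fold lower (1.75 to 2.32) in EAE, where 7.25% of genes were at least 2-fold apart, 3.03% higher and 4.22% lower, and with DESeq2 size factors it no longer passed (0 of 10). Fosb was 1.66-fold (1.16 to 2.39) and Junb 1.34-fold (1.10 to 1.64) higher. Cells with under 1% microglial and endothelial marker UMIs had intervals that overlapped between conditions for both genes. There Junb was at 329 CPM (277 to 389) in naive and 392 CPM (338 to 453) in EAE. Fosb was at 105 (76.3 to 141) and 162 CPM (128 to 203). In the whole class the summed level was 1.26-fold lower in EAE (1.18 to 1.34). Among cells with at most 5% mt- UMIs it was higher, with a log2 difference of 0.43. Above 5% mt- UMIs it was 2434 CPM in naive and 1475 CPM in EAE cells.

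Monocyte-like cells, blood-derived cells that enter the inflamed tissue, were numerous only in the EAE libraries (230 and 128 cells). Their summed level was 1.67-fold higher (1.59 to 1.75) in TRAIL+ than in TRAIL-, and 2 members were at least 2-fold higher, where 11.5% of genes were at least 2-fold apart, 5.06% higher and 6.45% lower. Egr1 was at 145 CPM in TRAIL- and 636 CPM in TRAIL+, 4.39-fold higher (3.43 to 5.68), and Fosb was at 224 and 544 CPM, 2.44-fold higher (1.95 to 3.05). Fos, at 1124 and 2248 CPM, lay just under the threshold. Microglial markers were also unequal in these cells, at 2992 CPM in TRAIL- and 10434 CPM in TRAIL+. In the 214 and 77 cells with under 1% microglial marker UMIs, a limit chosen after the values were seen, the summed level was 4795 and 7402 CPM, 1.54-fold higher (1.45 to 1.64) in TRAIL+. Egr1 was 4.91-fold (3.51 to 6.91), Fosb 2.49-fold and Fos 2.08-fold higher there, while Jun turned to 515 CPM in TRAIL- and 334 CPM in TRAIL+. In the 16 and 51 cells with at least 1% the summed level was 8758 and 9957 CPM, 1.14-fold (1.02 to 1.27) in TRAIL+, and the ratios of Fos, at 0.921 (0.749 to 1.14), and Egr1, at 1.17 (0.792 to 1.78), had intervals that span 1. In EAE TRAIL+, 6 members were at least 2-fold higher in microglia-like than in monocyte-like cells, where 31.4% of genes were apart, 15.4% higher and 16% lower.

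Astrocyte-like cells, the labelled cell type, had low levels in naive TRAIL+ once cells with other classes' markers were set apart. All 10 members were at least 2-fold lower in them than in microglia-like cells of the same library, where 53.6% of genes were apart, with 24.9% higher and 28.6% lower in microglia-like cells. The 115 astrocyte-like cells with under 1% microglial and endothelial marker UMIs held members at 1053 CPM (898 to 1227), and the other 26 cells at 19017.5 CPM (17845 to 20247). The 35 astrocyte-like cells of naive TRAIL- stood much higher, at 14907 CPM, and the 32 of them under the same limit at 15052 CPM (14178 to 15965). Fos was at 5118 CPM in these 35 cells and 989 CPM in all 141 of naive TRAIL+. So few cells in 1 library each give no measure of how astrocytes vary.

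Other small groups fell on both sides of this range. Fibroblast-like cells of naive TRAIL- (30 cells) held members at 27327 CPM, close to the endothelial-like cells of that library. Border macrophage-like cells were at 21441 CPM in the 66 TRAIL+ cells of naive mice and 16583 CPM in the 24 of EAE, 1.29-fold lower (1.18 to 1.41), with Klf2 at 1997 and 1494 CPM. Oligodendrocyte-like cells went the other way, at 2865 CPM in the 79 TRAIL- cells of naive mice and 4414 CPM in the 35 of EAE, 1.54-fold higher (1.33 to 1.79), with Fos 2.11-fold higher (1.67 to 2.67). Fos gave 166 of the 343 member UMIs in EAE. Klf2 fell there from 30 UMIs in naive to 0 in EAE, and the ratios of Jund, at 0.989 (0.653 to 1.48), and Ier2, at 0.948 (0.391 to 2.17), were near 1. Choroid plexus-like cells were at 635 and 433 CPM in the same libraries.

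Related genes were read from lists chosen alongside the members. Of 31 other immediate early and early response genes, 0 of 21 compared passed 2-fold between EAE and naive TRAIL+ microglia-like cells, where 2.83% of all genes did (median log2 -0.20). In TRAIL- 4 of 22 did, a share near the 16.4% of all genes: the nuclear receptors Nr4a3 and Nr4a2 were 2.69-fold and 2.68-fold higher in EAE, and Klf4 and Rhob 2.90-fold and 2.24-fold lower. Feedback genes, whose products damp these signals or degrade the mRNAs, had 0 of 14 past 2-fold in TRAIL+ and 6 of 14 lower in TRAIL-, where 8.32% of all genes were (medians -0.20 and -0.73), with Dusp6, a phosphatase of ERK, 3.02-fold and Tob1 2.83-fold lower. Heat shock genes did not follow the members in TRAIL+: 3 of 11 were at least 2-fold higher in EAE, where 2.4% of all genes were, with the chaperone Hspa1b at 1476 against 522 CPM (2.83-fold) and Hspa1a at 1265 against 539 CPM (2.35-fold). In TRAIL- 1 of 10 was higher, Hspe1 at 2.16-fold, and 1 lower, Dnaja1 at 2.14-fold, where 8.05% and 8.32% of all genes were. In endothelial-like cells Ccn2, Plk3 and Gadd45b of 23 early response genes compared were 3.88-fold, 3.08-fold and 2.38-fold higher in EAE TRAIL-, where 2.29% of all genes were at least 2-fold higher. Pericyte or smooth muscle-like cells had 0 genes of these lists past 2-fold, where 7.25% of all genes were.

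Over the 13 groups the members' log2 levels followed one another to different degrees. Pearson's r, given as a description of groups that share libraries and depth, was highest for Jun with Ier2 (0.996) and lowest for Egr1 with Klf2 (0.536). Of 4003 genes ranked, those with levels most like the members' sum were Ddx5 (r = 0.965), Nr4a1 (0.964), Brd2 (0.956), Git2 (0.955) and Dusp1 (0.947). Junb was closest to Nfkbia (0.991) and Zfp36 (0.990), while Klf2 was closest to Slc6a6 (0.953) and the endothelial adhesion gene Pecam1 (0.914).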

How the data were processed

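Single cells sorted from the central nervous system of naive and EAE mice were measured in 4 libraries. The deposited tables hold counts of UMIs per barcode and gene, with no normalization; Bowtie and GRCm38 are named per the submitters' processing notes, and versions and parameters were not given in the sources used here. Every listed barcode had at least 100 UMIs. Barcodes with at least 500 UMIs and at most 20% mt- UMIs were kept. Kept cells were clustered with scanpy 1.11.5 and leidenalg 0.10.2 (2000 variable genes, 30 components, 15 neighbours, resolution 1) without the members and related lists, and the 16 clusters were named from fixed markers; how markers were scored was settled after a first naming was seen. UMIs were then summed by class and library, expressed as CPM, and compared as ratios with exact conditional Poisson intervals. A gene was compared where its mean level was at least 50 CPM and the pair of sums held at least 30 UMIs, and called at 2-fold. Shares of cells used cells thinned to 500 UMIs, with exact binomial intervals. Groups needed 50 cells and 100000 UMIs; smaller ones of at least 20 cells are given as values. Doublets were kept: Scrublet marked 90 of 7899 cells (1.14%), and leaving them out was an alternative. Alternative scalings used edgeR 4.0.16 (TMM) and DESeq2 1.42.0 size factors as scale factors only, with no test. The scripts were tested on simulated data. The named genes were the 10 members, the genes of the lists past 2-fold with the widest differences, and the genes most like the members. The members and lists were chosen with earlier results of these data known. The promoters of Egr1 and Ier2 are not reported here.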

Additional observations from a re-analysis of the deposited data

Results flagged for a closer look

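Some members had log2 differences of opposite sign in 2 classes or conditions under the same contrast. These differences between classes or conditions were not tested, since each group is 1 library. Between EAE and naive, Fosb was at 0.73 in pericyte or smooth muscle-like cells and at -0.59 and -1.90 in TRAIL+ and TRAIL- microglia-like cells. Junb was at 0.42 in pericyte or smooth muscle-like cells and at -0.37 and -0.57 in the same microglia-like groups. In the mural class, 28 naive and 17 EAE cells held 48.7% and 53.8% of the member UMIs. In mural cells with under 1% microglial and endothelial marker UMIs the intervals of both genes overlapped between conditions. There Junb was at 329 CPM (277 to 389) in naive and 392 CPM (338 to 453) in EAE. Fosb was at 105 (76.3 to 141) and 162 CPM (128 to 203).

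Between TRAIL+ and TRAIL-, Fos was at 0.87 in EAE microglia-like cells, 1.00 in EAE monocyte-like cells and -0.15 in naive microglia-like cells. Fosb was at 0.86, 1.28 and -0.46 and Jun at 0.66, 0.45 and -0.20 in the same groups. In monocyte-like cells with under 1% microglial marker UMIs Jun went the other way, at 515 CPM in TRAIL- and 334 CPM in TRAIL+. The naive values of Fos and Jun turned above 0 with TMM scaling, which moved all genes of that comparison by 0.23. Klf2 had another pattern, at 0.71 in EAE monocyte-like cells and at -0.67 and -0.65 in naive and EAE microglia-like cells.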

How the results depend on the processing

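Of 97 alternative values of the summed log2 difference over 7 comparisons, 94 kept their sign, 55 moved by less than the counting interval and 42 by more. The 3 that changed sign were TRAIL+ over TRAIL- in naive microglia-like cells with TMM (0.19) and DESeq2 size factors (0.20), and EAE over naive in mural (pericyte or smooth muscle-like) cells with at most 5% mt- UMIs (0.43). For EAE over naive TRAIL+ microglia-like cells (-0.56), the values that moved were -0.51 without mt- and ribosomal protein genes in the total, -0.72 with TMM, -0.66 with DESeq2, -0.54 at 10% and -0.51 at 5% mt- UMIs, and -0.61 without the member with most UMIs. For TRAIL- (-1.15) they were -1.08, -1.23, -1.08, -1.09, -0.96 and -1.31 in that order, -1.11 with at least 1000 UMIs, and -1.10 with at least 1% microglial marker UMIs. For TRAIL+ over TRAIL- the naive value without the top member was -0.071, and the EAE values (0.55) were 0.78 with TMM, 0.75 with DESeq2, 0.51 at 10% and 0.39 at 5% mt- UMIs, 0.51 with classes from own markers, 0.64 without the top member, and 0.49 with at least 1% microglial marker UMIs. Endothelial-like values (-0.42) were -0.38 without mt- and ribosomal genes, -0.52 with TMM, -0.48 with DESeq2, -0.50 with at least 1000 UMIs, -0.34 without the top member and -0.33 at 5% mt- UMIs. Mural values (-0.33) were -0.17 with DESeq2, -0.51 with at least 1000 UMIs, -0.21 at 10% mt- UMIs, -0.57 with equal weight for each cell, -0.12 without the top member, and -0.47 without cells of at least 1% microglial and endothelial marker UMIs. Microglia-like over endothelial-like in naive TRAIL- (0.19) was 0.0019 with TMM, 0.052 with DESeq2, 0.10 with at least 1000 UMIs, 0.23 with equal weight and 0.12 at 5% mt- UMIs. The limits of 5% mt- UMIs and 1% marker UMIs, and leaving out barcodes seen in another library, were chosen after seeing the data. Counts of members past a cut took both directions together. At 1.5-fold in place of 2-fold, 5 members passed in EAE over naive TRAIL+ microglia-like cells. In TRAIL+ over TRAIL- microglia-like cells 1 passed in naive mice, Klf2, which was lower in TRAIL+. In EAE 7 passed, with Klf2 again lower. Between EAE and naive, 1 passed in endothelial-like and 3 in mural cells, where Fosb was higher and Fos lower. At 2-fold, TMM and DESeq2 each gave 2 in EAE over naive TRAIL+ microglia-like cells and 3 in the EAE TRAIL comparison. DESeq2 gave 0 in mural cells. The share of all genes past these cuts was not computed, so the counts cannot be set against it. Without thinning, Fos was seen in 89.97%, 91.1%, 59.1% and 80.1% of microglia-like cells and in 63.9% and 56.2% of endothelial-like cells. No paired analysis was possible because each group is 1 library, and for the same reason no replicate could be left out. Depth was lowest in naive mural cells, with a median of 799 UMIs, among the 13 groups compared.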
